A study of Homo sapiens with 5 samples.

Results

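miR-31, miR-135b and miR-155 are microRNAs often raised in colorectal tumours, and they were taken as the 3 probes named exactly hsa-miR-31, hsa-miR-135b and hsa-miR-155 among the 734 miRNA probes of the panel (654 human, 80 viral). They were measured in Caco2 cells, an established line from a human colorectal adenocarcinoma, whose cells polarise into an epithelial sheet in culture. Cells carried a non-target shRNA (NT, replicates 1 and 3, n = 2) or an shRNA against PLEKHA7 (shPLEKHA7, replicates 1, 2 and 3, n = 3), in both cases after infection and selection of the cultures. PLEKHA7 is a protein of the adherens junction, and the comparison asks how miRNA levels stand when it is depleted. The assay was NanoString's nCounter panel for human miRNAs (version 2), in which barcodes bound to each target are counted with no amplification step. Each sample was read in 1 lane. The design text places the replicates in separate infections. The groups follow the sample titles, since the source field of 2 shPLEKHA7 samples carries another PLEKHA number. Only 1 shRNA construct per group is named, and the panel has no PLEKHA7 probe, so the knockdown was not analysed here.

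A mature miRNA guides Argonaute to messenger RNAs that pair with its seed, bases 2 to 8 from the 5′ end, and these messages are then repressed. miR-31 is an epithelial miRNA with RASA1 and other negative regulators of signalling among its known targets. miR-135b targets APC, the tumour suppressor of the Wnt pathway that is lost in most colorectal cancers. miR-155 is processed from the BIC transcript (MIR155HG), is best known from activated lymphocytes and myeloid cells, and has been described in several carcinomas.

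The mature sequences are shown because the seeds set the miRNAs apart and because a close relative of miR-135b has its own probe. They are RefSeq sequences (GRCh38.p14), found by matching the target sequence of each probe. Capitals mark the seed.
hsa-miR-31: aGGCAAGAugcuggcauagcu
hsa-miR-135b: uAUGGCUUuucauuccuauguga
hsa-miR-135a: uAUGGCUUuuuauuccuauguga
hsa-miR-155: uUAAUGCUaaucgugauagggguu

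miR-31 matched hsa-miR-31-5p at chr9:21512158-21512178 on the minus strand of GRCh38.p14, within the span of the long noncoding RNA gene MIR31HG. miR-135b matched hsa-miR-135b-5p at chr1:205448361-205448383, also on the minus strand, within the spans of LEMD1 and BLACAT1. miR-155 matched hsa-miR-155-5p at chr21:25573983-25574006 on the plus strand, within MIR155HG. Its probe target was the first 23 bases of the 24-base RefSeq sequence, and the targets of miR-31 (21 bases) and miR-135b (23 bases) matched in full. The 3 seeds differ from each other. No other probe shared the miR-31 seed. The miR-135b seed was shared with hsa-miR-135a, whose target differs from that of miR-135b by C11U alone, counted from the 5′ end of miR-135b. The miR-155 seed was shared with the viral probe kshv-miR-K12-11. Apart from miR-135a, the nearest target on the panel to any of the 3 was 7 edits away, hsa-miR-1256 from miR-31.

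The lanes held 32138 to 58298 miRNA counts each. The limit of detection, the mean plus 2 SD of the 8 negative-control probes of a lane, was 13.4 counts in NT replicate 1, 20.6 in NT replicate 3, 24.5 in shPLEKHA7 replicate 1, 11.003 in shPLEKHA7 replicate 2 and 20.2 in shPLEKHA7 replicate 3. The negative controls averaged 6.1 and 7.5 counts per NT lane against 11.1, 4.5 and 8.5 per shPLEKHA7 lane, so background overlapped between the groups. The numbers that end the lane names in the labels run 1 and 3 for NT and 4, 5 and 6 for shPLEKHA7, and if they are lane positions, position and group cannot be told apart.

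All 3 miRNAs were counted close to background. Their raw counts ran from 11 to 34, beside 11 to 21 for the positive-control spike-in POS_E and 5 to 23 for POS_F, the least counted pair of the 6 spike-ins. Of the 15 lane values, 10 exceeded the limit of detection. miR-31 did so in 5 of 5 lanes, miR-155 in 3 of 5 and miR-135b in 2 of 5, both of them NT lanes. Passing the limit does not show that a probe bound its own target. Of the 204 probes tested below, 189 were human and the rest viral. The viral probes ebv-miR-BART9 (66 to 91 raw counts) and ebv-miR-BHRF1-3 (30 to 80) exceeded the limit in all 5 lanes, while others such as kshv-miR-K12-11 did so in none. What the viral probes bound was not tested. By raw count miR-31 ranked 102 to 152 among the 654 human probes, miR-135b 98 to 328 and miR-155 121 to 156. These are ranks of counts, not of molecules, because probes can differ in efficiency.

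**Figure D1:**
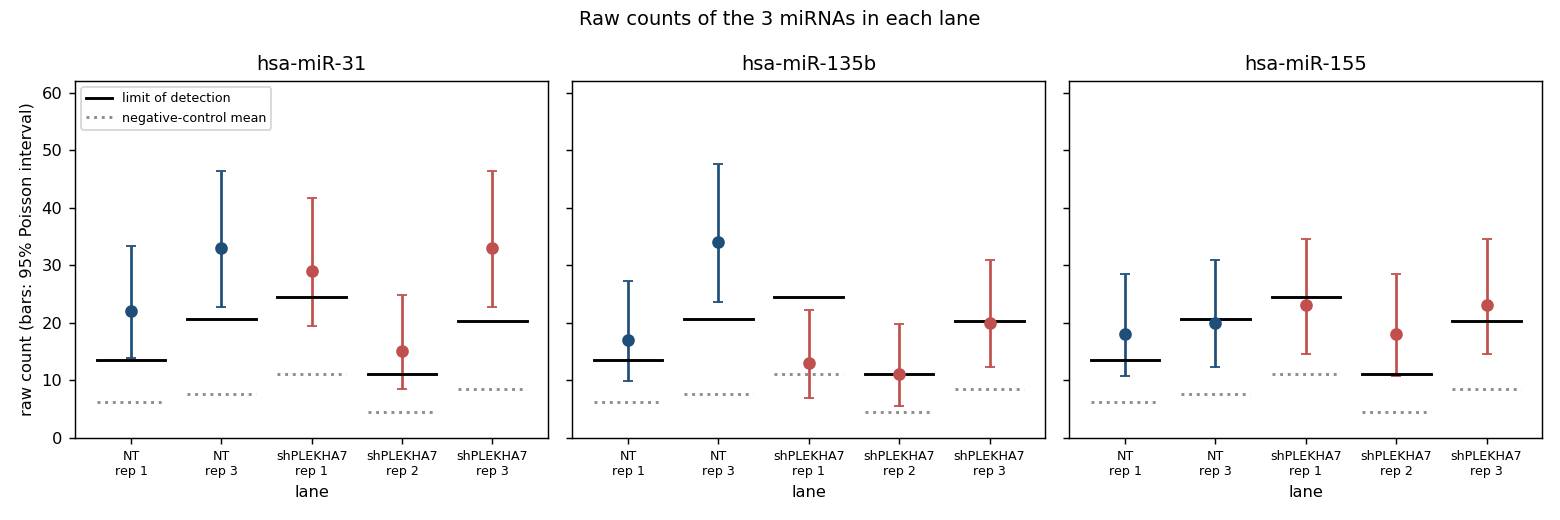
Raw count of miR-31, miR-135b and miR-155 (y axis) in each of the 5 lanes (x axis; NT blue, shPLEKHA7 red), with 95% Poisson intervals that cover counting error only. Black lines give the limit of detection of the lane and dotted lines its mean negative-control count; miR-135b is above the black line in both NT lanes and in no shPLEKHA7 lane, where its counts of 11 and 20 sit just under limits of 11.003 and 20.2.

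In the edgeR quasi-likelihood fit over the 204 probes that exceeded the limit of detection in at least 2 lanes, 13 probes (6.37%) had an adjusted p under 0.05, and 8 of these (3.92%) were lower in shPLEKHA7 cells. None of the 3 miRNAs was among them. By unadjusted p, 1 of 3 was under 0.05, miR-135b, both in edgeR and in limma on the deposited values. Among all 204 tested probes, 48 were under 0.05 by unadjusted p in edgeR and 34 in limma. So 1 of 3 marks nothing particular to the members. After adjustment limma likewise called 0 of 3. DESeq2 gave no adjusted p for any of the 3, because its independent filter set them aside. Its unadjusted p was under 0.05 for miR-135b alone of the 3, and for 38 of the 204 probes. The median log2 fold change of the 3 was -0.28, and that of all tested probes was 0.06.

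miR-135b had the largest difference of the 3. NT replicate 1 gave 17 raw counts and NT replicate 3 gave 34, against 13, 11 and 20 for shPLEKHA7 replicates 1, 2 and 3. Scaled by the trimmed mean of M values (TMM), which makes lanes of different depth comparable, they were 21.5 and 32.0 normalized counts in NT, and 11.9, 15.1 and 15.1 in shPLEKHA7. NT replicate 3 was the highest lane and both NT lanes lay above all shPLEKHA7 lanes. The means were 26.8 ± 7.4 normalized counts in NT (SD, n = 2) and 14.03 ± 1.9 in shPLEKHA7 (SD, n = 3), a log2 fold change of -0.96 (SE 0.31, 95% interval -1.65 to -0.26). The edgeR adjusted p was 0.113 (unadjusted 0.0122), so the difference did not pass over all probes. The 2-sided exact permutation p was 0.1, the smallest that 10 splits allow. On the deposited normalized signal, at 20.8 and 37.0 in NT and 12.2, 12.5 and 17.97 in shPLEKHA7, the groups did not overlap either. Only 2 of the 204 tested probes had a more negative log2 fold change. That rank adds no support, since miR-135b passed the filter through its NT lanes alone.

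miR-135b was below the limit of detection in every shPLEKHA7 lane, so the size of the fold is not measured. The probe exceeded all 8 negative controls in shPLEKHA7 replicates 2 and 3, and 5 of 8 in replicate 1. Above the mean of the negative controls, it stood at 10.9 and 26.5 counts in the NT lanes and at 1.9, 6.5 and 11.5 counts in the shPLEKHA7 lanes. On that unscaled difference the groups overlapped, with NT replicate 1 just under shPLEKHA7 replicate 3 (2-sided exact permutation p = 0.3). Background subtraction before the TMM fit moved the log2 fold change to -1.61 (SE 0.62, edgeR adjusted p = 0.131). The probe entered the test through its NT lanes alone, and a probe that does so had to differ in that direction. With no filter, over all 734 miRNA probes, miR-135b was at log2 -1.12 (SE 0.34, edgeR adjusted p = 0.0754) and was not called. With either NT lane left out it was above the limit in fewer than 2 lanes and was not tested. Of 13 other settings with every lane kept, 2 called it. Scaling to the spike-ins did so (edgeR adjusted p = 0.0071), where 33 of 204 probes were called. A filter of 1 lane above the limit did so too (edgeR adjusted p = 0.0314), where 20 of 288 were called. miR-135b passed that filter through its NT lanes alone as well. The 13 are not independent, since deposited and housekeeping scaling gave the same fit (log2 -1.02). DESeq2, also among them, gave no adjusted p.

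miR-135a, which shares the seed of miR-135b, was below the limit of detection in every lane. Its raw counts were 13 (NT replicate 1) and 8 (NT replicate 3), against 6, 4 and 4 for shPLEKHA7 replicates 1, 2 and 3. The normalized counts of 16.5 and 7.5 in NT lay above those of 5.5, 5.5 and 3.0 in shPLEKHA7. Against the mean of the negative controls, the raw counts stood at 6.9 and 0.5 in NT and at -5.1, -0.5 and -4.5 in shPLEKHA7. The order of the groups is thus one among background counts and adds no support for miR-135b. No fold is given because no raw count passed the limit of detection. In NT replicate 1 the miR-135a count reached 13 against 17 for miR-135b, and in NT replicate 3 it was 8 against 34. Whether either probe also binds the other target was not tested.

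miR-31 was the best detected of the 3. It had 22 raw counts in NT replicate 1 and 33 in NT replicate 3, against 29, 15 and 33 for shPLEKHA7 replicates 1, 2 and 3. The normalized counts were 27.9 and 31.0 in NT, and 26.4, 20.6 and 24.95 in shPLEKHA7. The groups did not overlap, though shPLEKHA7 replicate 1 came close to NT replicate 1 and shPLEKHA7 replicate 2 was the lowest. On TMM-normalized counts, non-overlap in either direction was found for 48% of the tested probes. With shPLEKHA7 lower, the direction of both members that had it, it was found for 22.1%. So it marks nothing particular to miR-31 or miR-135b, the pair among the 3 that had it on that scale. The share of all tested probes was not counted on the deposited or the spike-in scale. The means were 29.5 ± 2.2 (SD, n = 2) and 24.0 ± 3.0 (SD, n = 3), a log2 fold change of -0.28 (SE 0.23, 95% interval -0.80 to 0.24, edgeR adjusted p = 0.558). The 2-sided exact permutation p was 0.2. The interval spans 0, so neither a difference nor its absence is settled for miR-31. On the deposited normalized signal the groups overlapped, at 27.0 and 35.9 in NT and 27.1, 17.0 and 29.65 in shPLEKHA7.

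miR-155 varied little in raw count over the lanes. NT replicate 1 gave 18 raw counts and NT replicate 3 gave 20, against 23, 18 and 23 for shPLEKHA7 replicates 1, 2 and 3. The normalized counts were 22.8 and 18.8 in NT, and 21.0, 24.7 and 17.4 in shPLEKHA7, where the highest and the lowest lane were both shPLEKHA7. The group means of 20.8 ± 2.8 (SD, n = 2) and 21.0 ± 3.7 (SD, n = 3) differed by less than the spread between replicates on the TMM scale. On the deposited normalized signal miR-155 was 22.1 and 21.7 in NT and 21.5, 20.4 and 20.7 in shPLEKHA7, so the groups did not overlap there, by a narrow margin (2-sided exact permutation p = 0.2). The TMM log2 fold change was -0.0047 (SE 0.29, 95% interval -0.65 to 0.64, edgeR adjusted p = 0.998), and the 2-sided exact permutation p was 0.9. Its sign turned with the scaling, to 0.058 under total miRNA counts. Counts of 20 in NT replicate 3 and 23 in shPLEKHA7 replicate 1 lay just under limits of 20.6 and 24.5. kshv-miR-K12-11, a herpesvirus miRNA with the seed of miR-155, was counted 6 to 17 times and was below the limit in all 5 lanes.

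**Figure D2:**
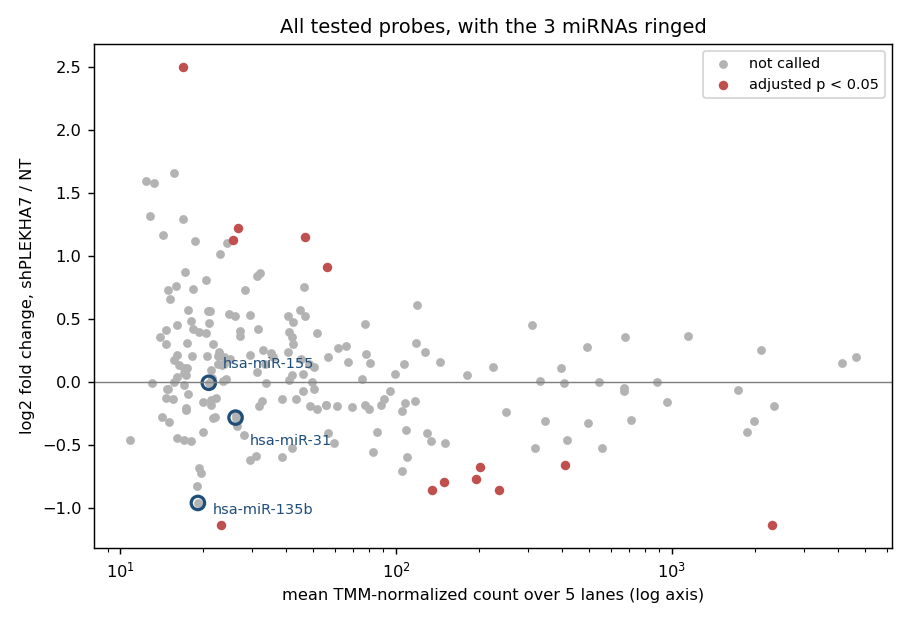
Log2 fold change of shPLEKHA7 over NT (y axis) against mean TMM-normalized count over the 5 lanes (x axis, log scale) for the 204 tested probes, with the 13 called probes in red. The 3 ringed miRNAs lie at mean normalized counts of 26.2 (miR-31), 19.1 (miR-135b) and 20.9 (miR-155), in the low range where fold changes spread widely.

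Counting error alone gave intervals of about the same width as those of the fit. Summed over lanes, miR-135b was counted 51 times in NT and 44 times in shPLEKHA7, which with the TMM lane sizes gives a log2 ratio of -0.98 with a 95% exact binomial interval from -1.59 to -0.37. For miR-31 the sums were 55 and 77, a log2 ratio of -0.28 with an interval from -0.80 to 0.25. For miR-155 they were 38 and 64, a log2 ratio of -0.012 with an interval from -0.61 to 0.61. These intervals cover counting error only and describe these lanes, not the conditions. The 95% Poisson interval of a single count was also wide, 9.9 to 27.2 around the 17 counts of miR-135b in NT replicate 1 and 23.5 to 47.5 around its 34 counts in NT replicate 3.

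The scaling of the lanes shifted all 3 miRNAs together. Scaling to the summed positive-control spike-ins moved the median log2 fold change of all tested probes from 0.06 to -0.27, and the log2 fold changes became -0.61 for miR-31, -1.28 for miR-135b and -0.34 for miR-155. Relative to the median of all tested probes, miR-31 stood at -0.34 under TMM and -0.33 under spike-in scaling, miR-135b at -1.02 and -1.005, and miR-155 at -0.064 under both. Counted per 1000 spike-in counts, miR-155 was 2.34 and 1.88 in NT against 1.64, 1.69 and 1.62 in shPLEKHA7, so on that scale its groups did not overlap. On the same scale miR-31 was 2.86 and 3.10 in NT against 2.07, 1.41 and 2.32, and miR-135b was 2.21 and 3.19 against 0.93, 1.03 and 1.40. Their groups did not overlap there either. How many of all tested probes do so on that scale was not counted, so this marks nothing particular to the 3.

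**Figure D3:**
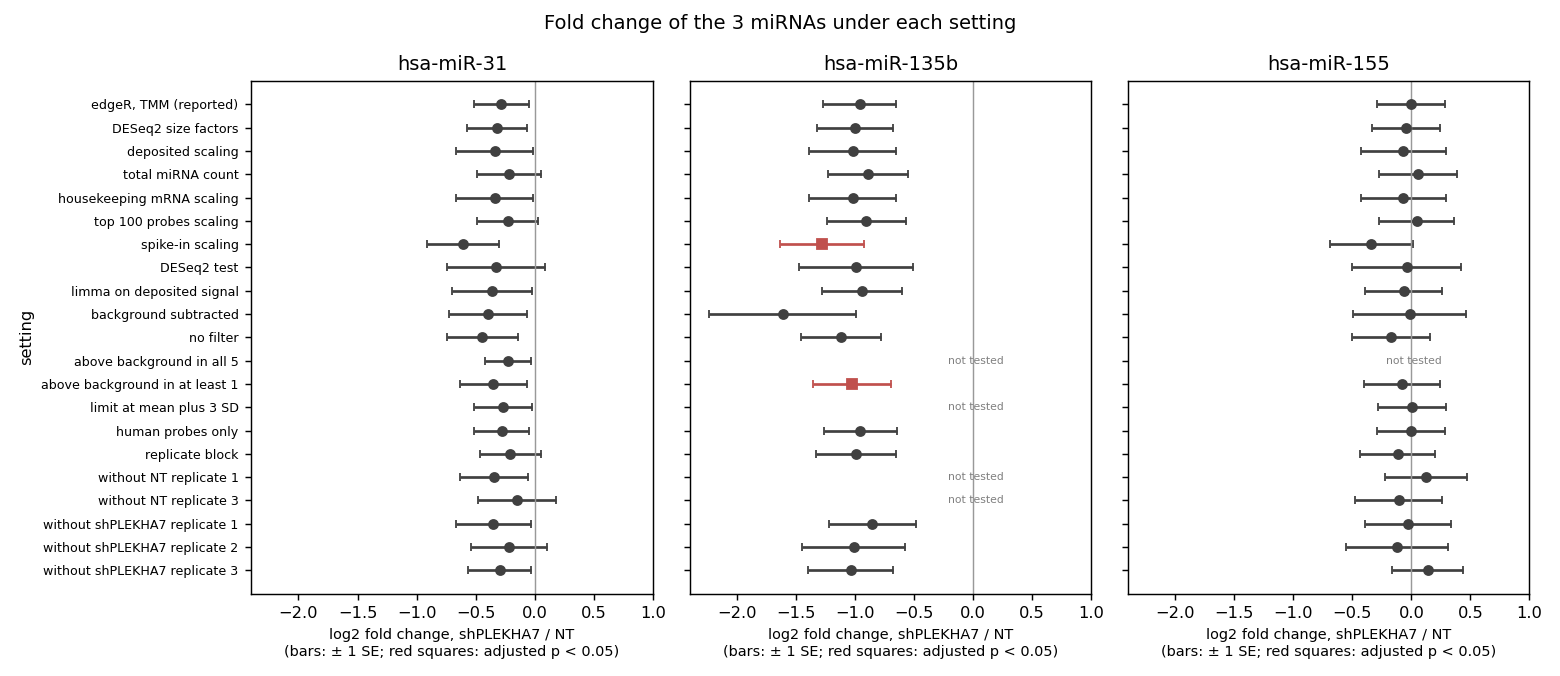
Log2 fold change of shPLEKHA7 over NT (x axis, ± 1 SE) for each of the 3 miRNAs under the reported edgeR fit and each other setting (y axis); red squares mark an adjusted p under 0.05. miR-135b lies between -1.61 and -0.85 wherever it was tested, miR-31 between -0.61 and -0.15, and miR-155 on both sides of 0, from -0.34 to 0.14.

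The 3 miRNAs did not share a profile over the lanes. Likeness was measured as the root mean square difference of log2 normalized counts, each centred on its own mean over the 5 lanes, and 5 lanes of low counts make it a description only. miR-135b and miR-155 differed by 0.56, miR-135b and miR-31 by 0.40, and miR-31 and miR-155 by 0.33. Among the human probes above the limit in all 5 lanes, the nearest to miR-135b was miR-21 (0.13), an abundant miRNA of colorectal tumours, followed by miR-30a (0.16) and miR-24 (0.19). All 3 were called lower in shPLEKHA7 cells, miR-21 at log2 -1.13 (SE 0.20, edgeR adjusted p = 0.0199). Neighbours were chosen over the same lanes, so their lower level follows from the choice and adds no support for miR-135b. The raw counts of miR-21 were 2140 and 4415 in NT and 1466, 1120 and 2419 in shPLEKHA7, with NT replicate 3 the highest lane as for miR-135b. The nearest to miR-31 were miR-107 (0.075), miR-372 (0.077) and miR-373 (0.095), none of them called. The nearest to miR-155 were miR-626 (0.11), miR-361-3p (0.12) and miR-140-5p (0.12), with raw counts of 18 to 37 and none of them called.

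**Figure D4:**
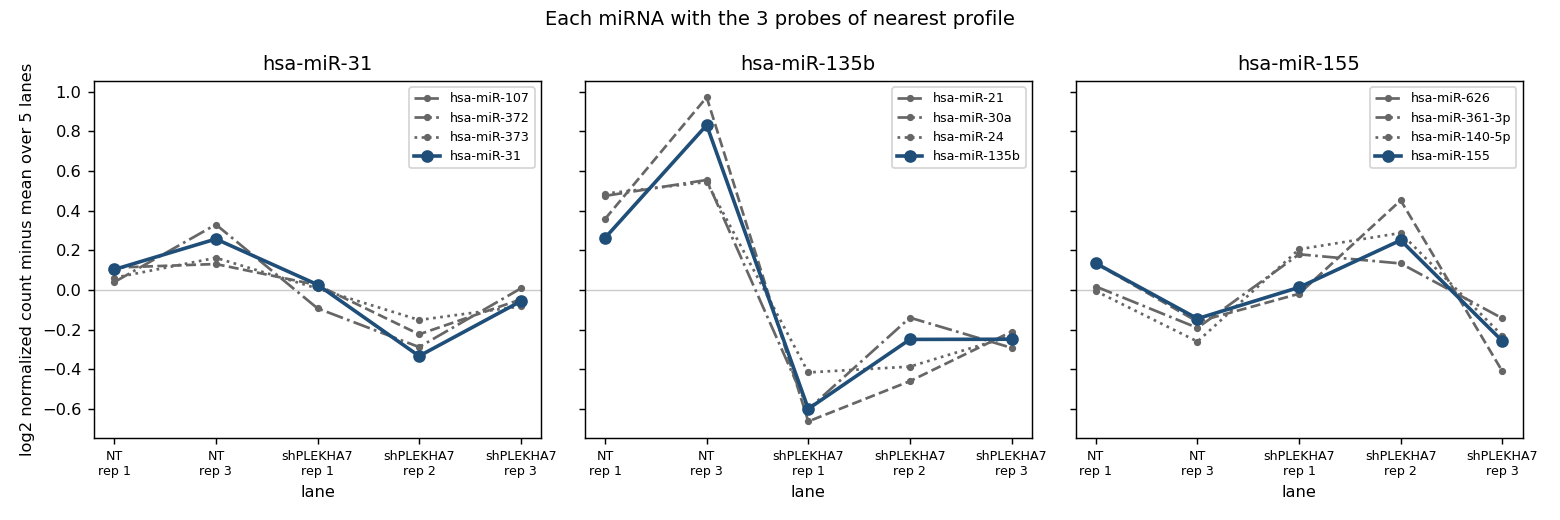
Log2 normalized count minus its mean over the 5 lanes (y axis) in each lane (x axis) for each of the 3 miRNAs (blue) and the 3 probes of nearest profile (grey). Lines only join the points of a probe; miR-135b and its neighbours miR-21, miR-30a and miR-24 are high in both NT lanes, whereas the other panels stay within a narrower range.

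Other miRNAs with known roles in colorectal cancer did not move one way. Of 19 other probes for colorectal oncomiRs, 16 were tested, all above the limit in every lane. miR-21 fell, and miR-19a, from the oncogenic miR-17-92 cluster, rose, at log2 1.15 (SE 0.24, edgeR adjusted p = 0.0283). The other 14 were not called. Among them miR-183 was at -0.59 (SE 0.16) and miR-96 at -0.52 (SE 0.19), both sensory-cluster miRNAs raised in many carcinomas, while miR-92a was at 0.20 (SE 0.15). In all, 7 of the 16 were below 0, with a median of 0.06, beside a median of 0.06 and 43.6% below 0 among all tested probes. Of 20 probes for miRNAs that act as tumour suppressors in the colon, 12 were tested. miR-215, a miRNA of the intestinal epithelium, was called higher (edgeR adjusted p = 0.048), with raw counts of 11 and 17 in NT and 31, 22 and 60 in shPLEKHA7. Both NT counts were below the limit, so it entered the test through its shPLEKHA7 lanes alone, and the size of its fold is not measured. No suppressor probe was called lower, and the median was -0.0024, with miR-34a at -0.13 (SE 0.22) and let-7a at 0.0042 (SE 0.14).

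Markers of the intestinal epithelium were present, with 7 of 8 probes above the limit in all 5 lanes and summed normalized counts of 2214 to 2226 in NT and 1959 to 2182 in shPLEKHA7. These sums did not overlap between the groups. Non-overlap was found for 48% of single tested probes, so this marks nothing particular to these markers. The probe with the most counts in the sums, miR-200c, was at log2 -0.15 (SE 0.12) and was not called. Of the 8 probes, 5 had a log2 fold change below 0, none of them called, and 1, miR-215, was called higher. Because miR-155 is abundant in blood cells, their markers were read beside it. miR-150, miR-451 and miR-144 were below the limit in every lane, and miR-223 and miR-142-5p were above it in all 5, with raw counts of 31 to 48 and 23 to 42 and log2 fold changes of 0.30 (SE 0.25) and 0.077 (SE 0.27). miR-142-3p was above it in 3 lanes, at log2 -0.72 (SE 0.39), and miR-146a in 2, at 0.39 (SE 0.33). The 7 blood cell probes summed to 141 and 144 normalized counts in NT and to 135 to 164 in shPLEKHA7. Of 6 stroma probes, miR-126 and miR-214 were above the limit in all 5 lanes, with raw counts of 17 to 56 and 15 to 69 and log2 fold changes of -0.52 (SE 0.30) and 0.84 (SE 0.34). miR-145 was above it in 3 lanes, and miR-143, miR-199a-5p and the joint probe for miR-199a-3p and miR-199b-3p in none. The stroma sums were 106 to 124 in NT and 110 to 130 in shPLEKHA7. No blood cell or stroma probe was called, and the blood cell and stroma sums overlapped between the groups. All cultures were of the Caco2 line, so these low counts do not by themselves mark blood or stroma cells. In bulk RNA, fewer cells of the line with a miRNA and less of it per cell cannot be told apart.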

How the data were processed

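The authors deposited raw nCounter counts per probe and lane, and a table of normalized signal. The submitters' files do not name the exporting software. The deposited signal equalled the raw count times 1 factor per lane within 0.02 for 100% of human miRNA values, and that factor brought the 5 housekeeping mRNAs to 1 common geometric mean. Viral probes were unscaled in it. The raw counts of miRNA probes were fitted with edgeR 4.0.16 (R 4.3.3): TMM scaling, group as the only term, quasi-likelihood test, Benjamini-Hochberg adjustment over all 204 tested probes, threshold 0.05. The SE was derived from the fold change and the F statistic of the test. Alternatives used DESeq2 1.42.0, limma 3.58.1 with a pseudocount of 1, other scalings, subtraction of the mean negative control (floor 1), changed filters, a replicate block and single samples left out. The fit was tested on simulated data. The members, the lists and the rule for named probes (the members, probes sharing a seed, the 3 of nearest profile, and called or fully detected list probes, of which the text gives examples) were chosen with earlier results of these data known. Blood cell and stroma markers outside that rule are named to account for each marker list, a choice made after their values were seen. Some miRNAs stand in more than 1 list. NT replicate 2 was not analysed here.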

Additional observations from a re-analysis of the deposited data

How the results depend on the processing

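miR-31 stayed below 0 and uncalled in all 15 other settings that kept the 5 lanes and in all 5 with a lane left out (log2 -0.35 to -0.15), DESeq2 giving no adjusted p for any of the 3. Its largest departures were -0.61 under spike-in scaling, -0.44 with no filter and -0.15 without NT replicate 3. miR-135b was below 0 in all 13 settings and 3 left-out lanes in which it was tested, and passed at log2 -1.28 under spike-in scaling and -1.03 with the filter of 1 lane. It was not tested with a limit of 3 SD, with the filter of all 5 lanes or without an NT lane, and with a shPLEKHA7 lane left out it ran from -1.04 to -0.85. miR-155 turned positive under total counts (0.058), top-100-probe scaling (0.046) and a limit of 3 SD (0.0063), and ran from -0.12 to 0.14 with a lane left out. The cause was not tested. The number of called probes, 13, was 6 under deposited and housekeeping scaling, 20 under total counts, 33 under spike-in scaling and 20 with the filter of 1 lane. With a lane left out it ran from 0 (without NT replicate 3, with 34 at an unadjusted p under 0.05) to 18, with 1 without NT replicate 1. A lone NT lane was assumed to vary like the shPLEKHA7 lanes. With the replicate block 22 probes were called, none of them a member (miR-31 -0.21, miR-135b -0.99 at an edgeR adjusted p of 0.0616, miR-155 -0.12). The 2 shared numbers were not taken as pairs: across probes, the NT and shPLEKHA7 differences between numbers 1 and 3 correlated at 0.10. Counts of 11 to 34 near the limit of detection bound every value here.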
